A study of Mus musculus with 2 samples.

Results

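The immune receptor and MHC gene clusters are 4 stretches of the mouse genome that were examined in chromatin immunoprecipitation sequencing (ChIP-seq) of primary osteoblasts with an antibody against Tnni2. They were fixed by coordinates: the major histocompatibility complex (MHC) at chr17:33800001-37500000, the immunoglobulin heavy chain cluster (Igh) at chr12:114500001-117300000, the immunoglobulin kappa light chain cluster (Igk) at chr6:67500001-70700000 and the natural killer (NK) cell receptor cluster at chr6:128500001-130400000. Together they make up 1160 bins of 10 kb, of 241520 such bins on chromosomes 1 to 19. The build is not settled. The series text names mouse reference 8, but reads on chromosome 7 reach 152524453, which by general knowledge lies past the end of that chromosome in mm8 and inside it in mm9, and the coordinates of the clusters follow mm9. Coordinates are those of the deposited reads, counted from 1.

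One library came from osteoblasts, the cells that lay down bone, of mice carrying 2 del175k alleles of Tnni2 (mutant), and the other from their wild-type littermates, all of the strain 129sv. Tnni2 encodes the inhibitory subunit of the troponin complex of fast skeletal muscle. The antibody was sc-30486 in both, and n = 3 is given for the animals without a statement of how they were combined. With 1 library per genotype there was no replicate check, so every interval below covers counting error only and every ratio compares 2 libraries. No input or control-antibody library was used here, so read density cannot be credited to the antibody.

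The 4 clusters hold gene families that arose by repeated duplication and whose members differ in number and sequence between inbred mouse strains. The reference genome to which mouse reads are usually aligned is that of C57BL/6J. Antibody genes are assembled in B cells from variable (V), joining (J) and, in the heavy chain, diversity (D) segments, which are joined to constant regions. Osteoblasts are not known to rearrange these genes. The GRCm38.p6 gene table of RefSeq names 183 Ighv segments, 63 of them pseudogenes, and 162 Igkv segments, 60 of them pseudogenes. The MHC holds the H2 genes of the mouse, which encode the class I and class II molecules that present peptides to T cells, and 50 genes of the table carry an H2 name. The NK cluster encodes lectin-like receptors, among them the Klra (Ly49) receptors that bind MHC class I molecules, with 16 genes named, the Klrb1 receptors with 6, and the Clec2 genes, some of whose products are ligands of Klrb1 receptors, with 8. No annotation of the build of the reads was used, so no 10 kb bin is assigned to a gene.

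Sequence repetition within these families was measured in RefSeq promoters of GRCm38.p6, which reach from 250 bases before to 50 bases after a gene's start. A word of 36 letters, the read length here, was called recurrent where it stood at more than 1 place among all promoters of the table, on either strand. Promoters with a recurrent word numbered 7 of 11 for Klra (63.6%), 14 of 32 for H2 genes (43.8%), 3 of 6 for Clec2, 2 of 5 for Klrb1 and 2 of 3 for Klrc, against 11.1% of the 26994 genes with a promoter. Recurrent words made up 7.65% of all words in Klra promoters, 6.92% in H2, 45.3% in Klrc, 12.5% in Clec2 and 0.906% in Klrb1 promoters, against 4.97% over all genes. Promoters in which 50% or more of the words recurred numbered 0 in Klra, H2, Clec2 and Klrb1 and 2 in Klrc. Over all genes they numbered 1229 of 26994. No Ighv or Igkv name matched. The pair of genes that shared most words is printed for the H2 and the Klra family, as the extreme of each family and not a typical pair. Capitals mark bases inside a 36-letter word that the partner's promoter also holds. Klra3 (chr6:130337577-130337876, minus strand) and Klra9 (chr6:130193063-130193362, minus strand) shared 40 of 265 words, in 1 run of 75 bases. H2-Q6 (chr17:35424600-35424899, plus strand) and H2-Q7 (chr17:35438905-35439204, plus strand), which encode class I molecules of the Q group, shared 74 of 265 words over 179 bases. These 4 positions are in GRCm38.p6 and cannot be set against the coordinates of the reads.
Klra3: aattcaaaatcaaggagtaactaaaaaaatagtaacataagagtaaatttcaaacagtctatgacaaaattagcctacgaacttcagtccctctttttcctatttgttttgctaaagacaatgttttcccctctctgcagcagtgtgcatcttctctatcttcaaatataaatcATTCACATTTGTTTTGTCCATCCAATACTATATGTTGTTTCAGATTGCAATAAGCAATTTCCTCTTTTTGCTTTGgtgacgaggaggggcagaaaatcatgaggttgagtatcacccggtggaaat
Klra9: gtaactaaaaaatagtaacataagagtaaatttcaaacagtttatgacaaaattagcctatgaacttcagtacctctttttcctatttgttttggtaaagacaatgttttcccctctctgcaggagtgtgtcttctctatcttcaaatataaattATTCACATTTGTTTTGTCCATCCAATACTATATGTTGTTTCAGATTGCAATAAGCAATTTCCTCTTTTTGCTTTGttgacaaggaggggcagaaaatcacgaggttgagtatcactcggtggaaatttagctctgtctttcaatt
H2-Q6: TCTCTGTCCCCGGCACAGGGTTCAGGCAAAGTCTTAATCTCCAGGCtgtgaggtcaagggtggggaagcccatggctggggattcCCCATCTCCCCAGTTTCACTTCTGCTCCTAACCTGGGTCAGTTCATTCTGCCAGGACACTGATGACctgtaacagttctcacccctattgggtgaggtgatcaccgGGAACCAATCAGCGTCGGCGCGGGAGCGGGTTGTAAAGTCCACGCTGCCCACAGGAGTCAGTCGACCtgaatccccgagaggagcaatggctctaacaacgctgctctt
H2-Q7: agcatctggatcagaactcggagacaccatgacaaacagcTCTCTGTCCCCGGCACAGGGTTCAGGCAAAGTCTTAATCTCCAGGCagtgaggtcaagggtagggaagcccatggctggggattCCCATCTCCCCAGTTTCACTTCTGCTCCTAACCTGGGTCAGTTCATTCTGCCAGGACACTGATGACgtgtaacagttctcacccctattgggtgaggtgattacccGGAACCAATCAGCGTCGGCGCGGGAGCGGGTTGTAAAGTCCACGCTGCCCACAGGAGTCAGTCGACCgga
The part of sequence repetition in the read densities below was not tested.

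Positions counted once for each chromosome, 5′ end and strand numbered 2927228 for the mutant and 2821498 for the wild-type library on chromosomes 1 to 19, a mean of 12.1 and 11.7 per 10 kb bin. Ratios between the libraries are mutant over wild type after scaling to these totals, with exact Clopper-Pearson 95% intervals. Chromosome X had a ratio of 0.716 and chromosome Y one of 3.2, and all 4 clusters lie on autosomes.

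The Igk cluster was the sparsest of the 4 in both libraries. It held 1196 mutant and 978 wild-type positions, or 3.74 and 3.06 per 10 kb, where the 3 Mb on each side held 12.3 and 12.1. Its density was 0.303 times that of its flanks in the mutant library (95% exact interval 0.285 to 0.322) and 0.253 times in the wild-type library (0.236 to 0.270). Of 700 other autosomal windows of the same length laid end to end, each set against its own flanks, 39.1% lay below their flanks in both libraries by this interval. Being below the flanks is therefore common, but only 5 of the 700 windows lay lower than Igk in the sum of both density ratios. The middle 90% of windows spanned 0.683 to 1.37 for mutant and 0.641 to 1.43 for wild-type positions.

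The edges of the sparse stretch coincided with the edges of the Igk interval at the resolution of 100 kb. The last 100 kb bin before it held 99 mutant and 108 wild-type positions, and the first inside it 25 and 30. At the other end the last bin inside held 62 and 80 positions and the first bin beyond it 138 and 142. All 32 bins of 100 kb inside Igk lay below the median flank bin of 126 mutant and 119 wild-type positions. The fullest bin inside held 90 mutant positions, or 80 for the wild-type library, and the emptiest 5 and 3, on chr6:69500001-69600000.

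**Figure D1:**
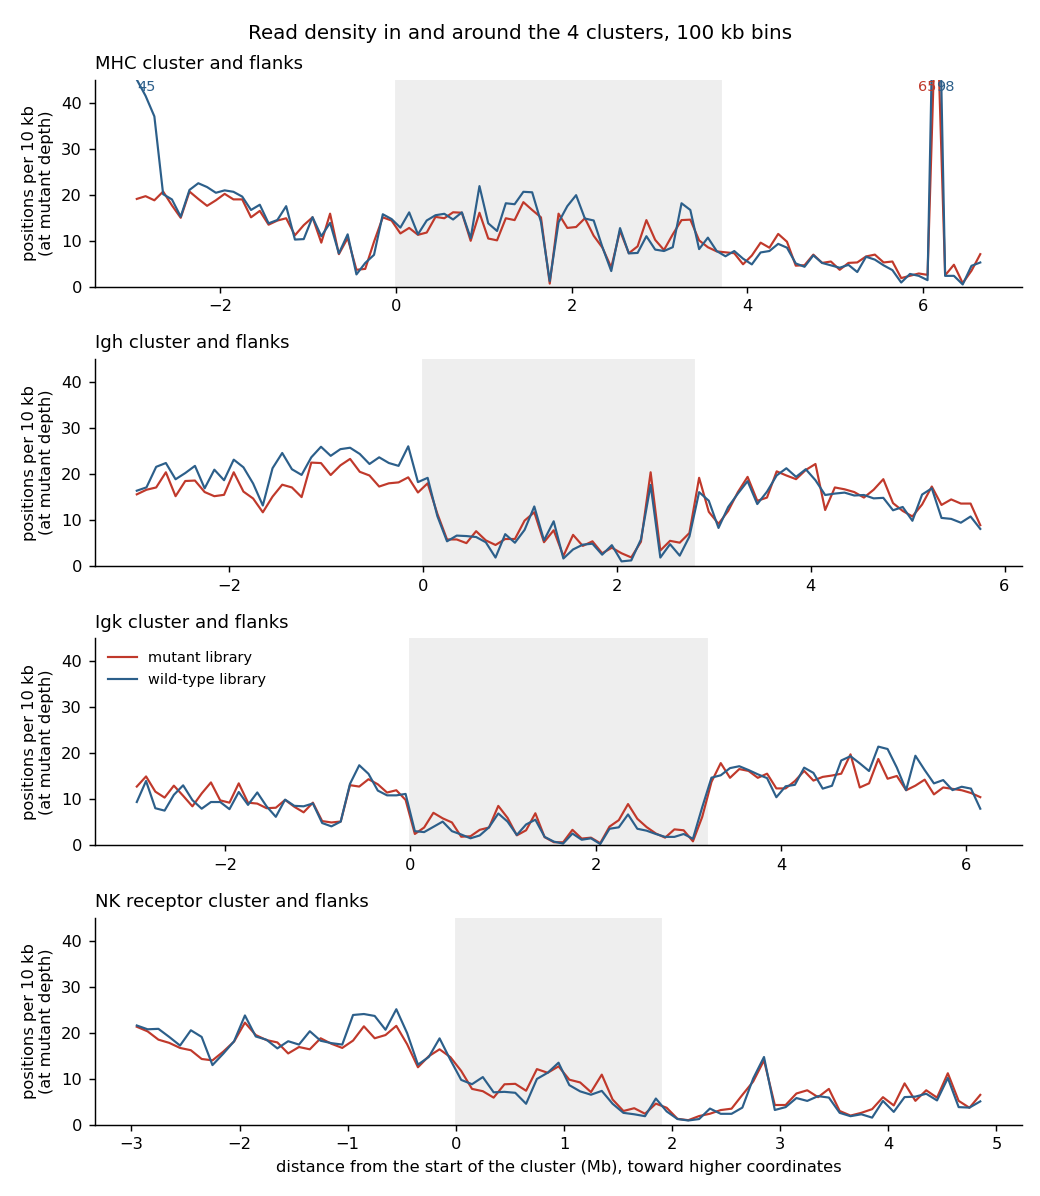
Distinct positions per 10 kb, averaged over 100 kb bins and with the wild-type library scaled to the depth of the mutant library, along each cluster (grey) and 3 Mb on each side; the horizontal axis gives the distance in Mb from the cluster's start. Both libraries drop inside Igk and beyond the first 200 kb of Igh. The NK receptor cluster forms part of a longer decline, and MHC lies between a denser and a sparser side. Values above the axis are printed at its top.

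Gaps were most frequent in Igk. Bins of 10 kb with no position in either library, called empty, numbered 54 of 320 (16.9%), against 1 of 600 flank bins and 2.91% of the bins of other autosomal windows of this length. A count of 0 allows up to 3 positions in a bin, where the median flank bin held 24 in the libraries together. The empty bins formed 33 runs, of which the longest were chr6:69530001-69580000 (50 kb) and chr6:69340001-69380000 (40 kb). They were followed by 4 runs of 30 kb, chr6:69130001-69160000, chr6:69230001-69260000, chr6:70480001-70510000 and chr6:70570001-70600000. Measured to the base, the longest stretch without a position ran for 63320 bases on chr6:69526144-69589463, against 16401 bases at most in the flanks, and 19 stretches in Igk were over 20 kb long. The first 4 of these 6 runs lay in the segment chr6:69100001-69900000, the third of 4 segments of equal length, which held 23 empty bins of 80, and the other two in the last segment. The segments at lower coordinates held 8 and 6, and the one at higher coordinates 17.

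Low bins, with under 25% of the median flank bin, numbered 179 of the 320 in Igk (55.9%), against 3.5% of its flanks and 6.04% of the bins of other windows. The longest run of low bins covered 260 kb on chr6:69000001-69260000, with 15 mutant and 12 wild-type positions. Density in the 4 segments ranged from 3.3 to 4.19 mutant and from 2.46 to 3.76 wild-type positions per 10 kb. No bin of Igk was in excess, that is, at 2 times the median flank bin or more in sum and 1.5 times in each library, where 4.32% of window bins were. The median bin of Igk held 2 positions in each library, and the fullest held 20 mutant or 26 wild-type positions.

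The Igh cluster was the next sparsest. It held 1874 mutant and 1670 wild-type positions, or 6.69 and 5.96 per 10 kb, against 16.6 and 17.4 in its flanks. Its density was 0.402 times the flanks by mutant reads (0.383 to 0.423) and 0.344 times by wild-type reads (0.326 to 0.362). Of 803 other windows of this length 40.6% lay below their flanks in both libraries, and 9 lay lower than Igh. Against the mean autosomal bin, a reference chosen after the data were seen, the density of Igh was 0.552 and 0.511, and that of Igk 0.308 and 0.262.

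Inside Igh the density changed with position. The bin on chr12:114500001-114600000 held 180 and 185 positions, above the median flank bin of 166 and 177. The next bin held 114 and 105, and the one after it 58 and 52. From lower to higher coordinates the 4 segments held 8.46, 7.29, 4.06 and 6.97 mutant positions per 10 kb, and 8.29, 6.9, 3.16 and 5.51 wild-type positions. The third segment, chr12:115900001-116600000, was thus the sparsest in both, at 0.244 and 0.182 times the flanks. Of the 28 bins of 100 kb, 23 lay below the lowest of the 60 flank bins in each library.

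Igh held 16 empty bins of 280 (5.71%), while none of its 600 flank bins was empty and 2.95% of the bins of other windows were. They formed 13 runs, of which the longest were chr12:116270001-116300000 (30 kb) and chr12:116960001-116980000 (20 kb). The others were single bins, the first of them at chr12:114990001-115000000 and chr12:115020001-115030000. The longest stretch without a position covered 37156 bases on chr12:116263645-116300800, against at most 9723 bases in the flanks. Low bins numbered 128 (45.7%), against 0.333% in the flanks and 5.95% in other windows.

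One bin of Igh was in excess, against 4.24% of window bins. It lay on chr12:116850001-116860000 and held 66 mutant and 61 wild-type positions, 4.12 and 3.59 times the median flank bin of each library, with a ratio of 1.04 (0.725 to 1.502). The positions were spread over 15 of its 20 stretches of 500 bp, and the fullest of these, chr12:116855501-116856000, held 12 and 15. Repeated reads added little, with 71 mutant and 70 wild-type reads in all. The bin just before it, named after its values were seen, held 53 and 25 positions, or 2.04 (1.25 to 3.43) as a ratio. The 100 kb around them, from 116800001, held 204 and 170 positions and was the fullest 100 kb bin of Igh in the mutant library. Both libraries thus had a local excess within an otherwise sparse cluster.

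**Figure D2:**
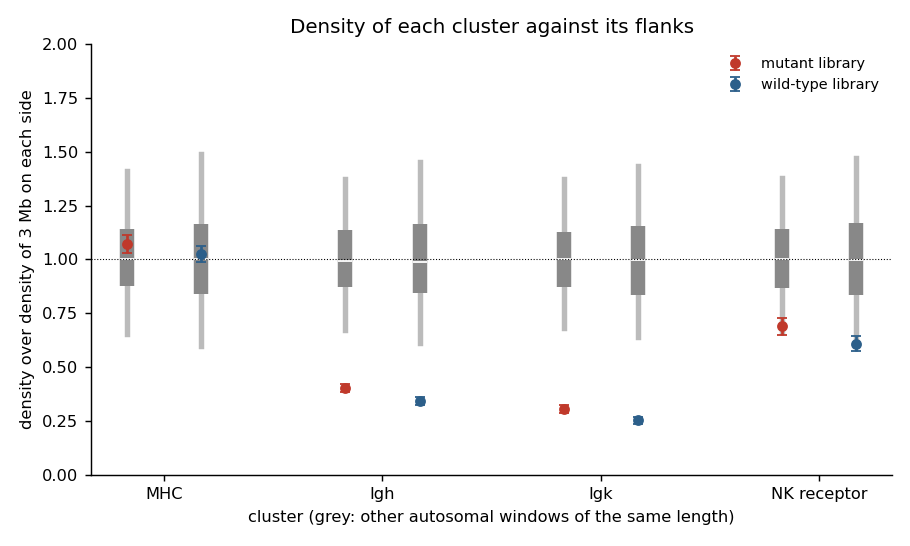
Density of each cluster divided by that of 3 Mb on each side (vertical axis) in the mutant (red) and wild-type (blue) library, with exact 95% intervals; grey shows other autosomal windows of the same length, with the thin bar from the 5th to the 95th percentile, the thick bar over the middle 50% and the white mark at the median. Igh and Igk lie below the grey bars in both libraries, the NK receptor cluster lies at their lower end and MHC within the thick bars.

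The NK receptor cluster was moderately sparse. It held 1500 mutant and 1313 wild-type positions, or 7.89 and 6.91 per 10 kb. Its density was 0.689 times its flanks by mutant reads (0.651 to 0.729) and 0.608 times by wild-type reads (0.573 to 0.645). Of 1193 other windows of this length 38.1% lay below their flanks in both libraries, and 66 lay lower than this cluster. The result depends on the side of the comparison. The 3 Mb at lower coordinates held 17.6 and 18.4 positions per 10 kb, and against them the cluster stood at 0.448 and 0.377. The 3 Mb at higher coordinates held 5.3 and 4.39, and against them it stood at 1.49 (1.39 to 1.60) and 1.57 (1.46 to 1.70). The cluster thus lay on a slope from a dense to a sparse stretch, and these comparisons with a single side were added after the data were seen.

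Within the NK receptor cluster the last segment differed from the rest. The first 3 segments held 8.17, 10.2 and 9.72 mutant positions per 10 kb, and 8.27, 8.23 and 8.15 wild-type positions. The segment chr6:129920001-130400000 held 3.58 and 3.04. It also held 7 of the cluster's 9 empty bins and 29 of its 40 low bins. The 9 empty bins (4.74%, against 4.0% of its flanks and 2.95% of window bins) were all single, the first of them at chr6:128630001-128640000, chr6:129600001-129610000, chr6:129950001-129960000 and chr6:130030001-130040000. The longest stretch without a position was 20984 bases, on chr6:130215422-130236405, shorter than the 30051 bases of the longest in its flanks. Low bins made up 21.1% of the cluster and 20.5% of its flanks, against 5.75% in other windows. The longest low run covered 120 kb on chr6:130030001-130150000, with 12 and 13 positions. No bin was in excess, against 7.83% of flank bins and 3.88% of window bins.

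The MHC had a density close to the autosomal mean, while its level against its surroundings depended on the flanks used. It held 4452 mutant and 4678 wild-type positions, or 12.03 and 12.64 per 10 kb, which is 0.993 and 1.08 times the mean autosomal bin. Its density was 1.07 times its flanks by mutant reads (1.03 to 1.11) and 1.02 times by wild-type reads (0.987 to 1.06). Of 607 other windows of this length 40.5% lay above their flanks in both libraries. Here too the 2 sides differed. The side at lower coordinates held 14.99 and 17.03 positions per 10 kb, and against it the MHC stood at 0.803 and 0.743. The side at higher coordinates held 7.5 and 7.67, and against it the MHC stood at 1.60 and 1.65. Of the 2250 mutant and 2301 wild-type positions on that side, 650 and 949 lay in a single 100 kb bin, chr17:39900001-40000000. The flanks also reach into 2 blocks where the libraries differ, chr17:30600001-31100000, of which the outermost 100 kb bin of the flank held 191 mutant and 434 wild-type positions, and chr17:39900001-40000000, which held 650 and 949. Without them the MHC stood at 1.22 (1.17 to 1.27) and 1.34 (1.29 to 1.40) times its flanks. With flanks of 1 Mb it stood at 1.33 (1.26 to 1.41) and 1.52 (1.44 to 1.61).

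Gaps in the MHC were few. It held 4 empty bins of 370 (1.08%), against 3.67% of its flanks and 2.94% of window bins, at chr17:35540001-35550000, chr17:35590001-35600000, chr17:36890001-36900000 and chr17:37480001-37490000. Low bins numbered 22 (5.95%), against 12.2% and 5.95%. Of these 8 were adjacent, in a run of 80 kb on chr17:35520001-35600000 with 5 mutant and 6 wild-type positions. The 100 kb bin that contains it held 7 and 12 positions, the lowest of the 37 in each library, where the median bin held 122 and 135. The next longest runs of low bins were of 20 kb. The run was thus a gap shared by both libraries within a stretch of ordinary density.

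Excess bins were frequent in the MHC but rested on a low reference. They numbered 97 (26.2%) against 23.5% of its own flanks and 4.90% of window bins, with a median flank bin of 16 where the median autosomal bin held 23. Against the median autosomal bin, a reference added after the data were seen, 170 kb or 4.6% of the MHC was in excess, against 4.40% of all autosomal bins. The fullest run, chr17:35380001-35400000, held 62 and 73 positions in 20 kb, 4.22 times the median flank bin, with a ratio of 0.819 (0.574 to 1.16). It was followed by chr17:34430001-34440000 with 25 and 27 positions, chr17:34700001-34720000 with 41 and 59, and chr17:34230001-34240000 with 22 and 25. Their positions were spread, since the fullest 500 bp held 6.0 to 15.4% of them. The ratios of these 4 runs all had intervals that included 1.

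**Figure D3:**
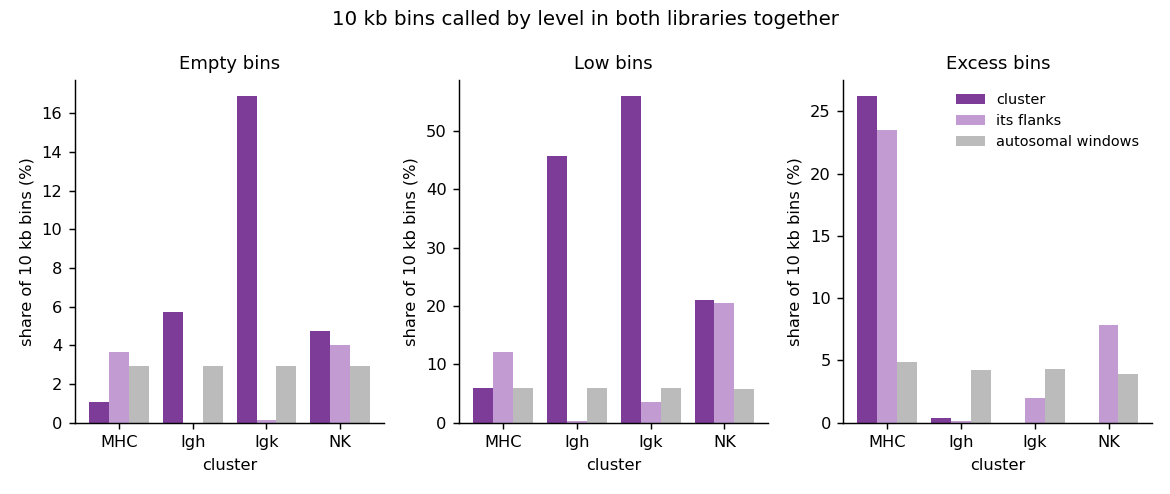
Share of 10 kb bins (vertical axis, %) that were empty, low or in excess in the libraries together, for each cluster, its flanks and the other autosomal windows of its length; the scales of the 3 panels differ. Igk has the most empty and low bins, Igh follows, and the excess bins of MHC are matched by those of its flanks.

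The 2 libraries were compared within each cluster. The ratio was above 1 in the 3 sparse clusters and below 1 in the MHC. It was 1.18 in Igk (1.08 to 1.28), 1.10 in the NK receptor cluster (1.02 to 1.19), 1.08 in Igh (1.01 to 1.16) and 0.917 in the MHC (0.880 to 0.956). Among other windows with 100 or more positions, intervals lay above 1 in 35.6% for the length of Igk, 31.2% for that of the NK receptor cluster and 33.3% for that of Igh, and below 1 in 23.1% for that of the MHC. A ratio as high as that of Igk was rare among these windows, exceeded in 11 of 699. The windows were not matched to the clusters in read density, with which the library ratio moved (below). The ratios of Igh and the NK receptor cluster were exceeded in 199 of 801 and 238 of 1184 windows, and 48 of 606 windows had a ratio below that of the MHC.

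Against both flanks together the sparse clusters were also relatively fuller in the mutant library. The odds ratio of cluster against flanks between the libraries was 1.2 in Igk (exact interval 1.09 to 1.32), 1.17 in Igh (1.09 to 1.26) and 1.13 in the NK receptor cluster (1.04 to 1.23). Higher values were found in 8 of 699, 14 of 801 and 65 of 1184 windows. These windows were not matched to the clusters in density against flanks. The odds ratio was also not scaled for read density, with which the library ratio moved (below). The odds ratio further depends on the side of the comparison. The flank of the NK receptor cluster at higher coordinates had a ratio of 1.16 (1.08 to 1.25), above the 1.10 of the cluster, and the one at lower coordinates 0.926. The flank of Igh at higher coordinates had 1.05 (1.01 to 1.10), near the 1.08 of the cluster, and the one at lower coordinates 0.836. Both flanks of Igk lay below its 1.18, at 1.05 and 0.936. In the MHC the odds ratio was 1.05 (0.991 to 1.10), and without the 2 blocks in its flanks it turned to 0.908 (0.859 to 0.961).

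Over the autosomes the ratio also moved with read density. In bins of 100 kb outside the clusters it was 1.13 at 100 to 149 positions in sum (3374 bins), 1.04 at 200 to 249 and 0.941 at 300 to 399. The bins of the 4 clusters at those densities had ratios of 1.07 (0.988 to 1.15), 0.965 (0.891 to 1.04) and 0.883 (0.834 to 0.936). At 50 to 99 positions the 24 cluster bins stood at 1.28 (1.16 to 1.41), above the 1.12 (1.09 to 1.14) of 495 other bins. Scaled to autosomal 10 kb bins with the same number of positions, a comparison added after the data were seen, Igk stood at 1.08 (0.996 to 1.18), the NK receptor cluster at 1.04 (0.969 to 1.13) and Igh at 1.04 (0.970 to 1.11). These 3 intervals included 1, so for a whole cluster a difference beyond that of equally dense 10 kb bins was not detectable at this depth. The MHC stayed below 1, at 0.924 (0.887 to 0.963). Scaled to 100 kb bins of like sum, Igk stood at 1.05 (0.962 to 1.14). Of the 100 kb classes, cluster bins lay above other bins at 50 to 99 positions and below them at 300 to 399. In the other classes the intervals overlapped. Each class pools bins of the 4 clusters, so it does not describe any single cluster.

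**Figure D4:**
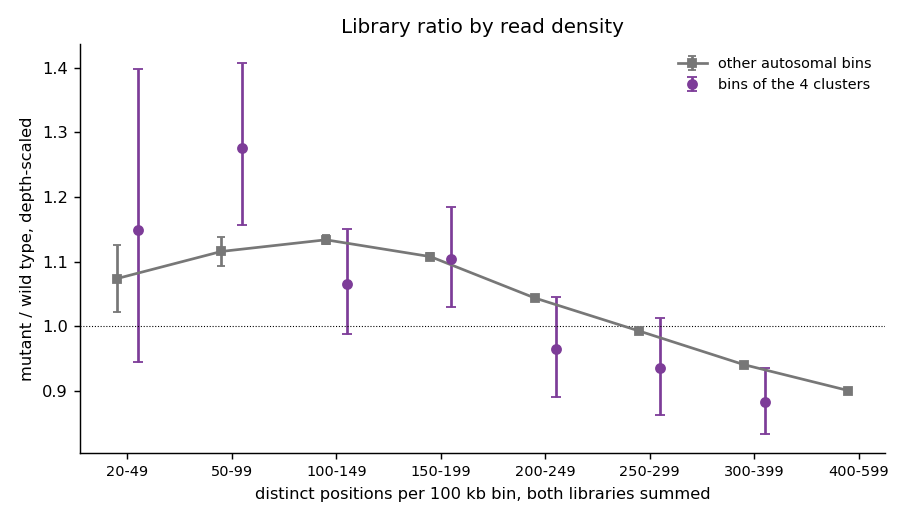
Depth-scaled ratio of mutant to wild-type positions (vertical axis) in 100 kb bins grouped by their distinct positions in both libraries together (horizontal axis), for other autosomal bins (grey squares) and the bins of the 4 clusters (purple), with exact 95% intervals. Above 150 positions the ratio falls with density in both sets. The cluster bins with 50 to 99 positions lie at 1.28, above the 1.12 of other bins, and those with 300 to 399 at 0.883, below 0.941.

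No 10 kb bin of any cluster was filled in 1 library, with 10 or more positions, and empty in the other, where 0.0112% of autosomal bins were. Bins called different, at 2-fold or more and with 1 outside the interval, numbered 17 of 322 tested in the MHC (5.28%), 7 of 139 in Igh (5.04%), 4 of 129 in the NK receptor cluster (3.10%) and 2 of 85 in Igk (2.35%), against 3.71% of 211279 autosomal bins. With intervals widened for all autosomal bins tested, 0 bins of the clusters differed, and 14 (0.00663%) did over the autosomes.

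The bins farthest from 1 held few positions. In the MHC they were chr17:34620001-34630000 with 18 mutant and 5 wild-type positions, chr17:36670001-36680000 with 27 and 8, chr17:35930001-35940000 with 23 and 7, and chr17:37060001-37070000 with 7 and 21, level with chr17:37120001-37130000. In Igh they were chr12:115030001-115040000 with 2 and 13, chr12:116910001-116920000 with 10 and 2, chr12:115700001-115710000 with 19 and 5, and chr12:115390001-115400000 with 3 and 11. The bins named in each of these clusters went in both directions. Over all differing bins the MHC had 4 higher and 13 lower in the mutant library, and Igh 4 higher and 3 lower, against 1.89% of autosomal bins higher and 1.82% lower. All 4 bins of the NK receptor cluster were higher in the mutant library. They were chr6:128610001-128620000 and chr6:129980001-129990000 with 11 and 2 positions each, chr6:130010001-130020000 with 12 and 3, and chr6:128500001-128510000 with 25 and 9. Both bins of Igk were lower in the mutant library. They were chr6:68700001-68710000 with 5 and 17 and chr6:70670001-70680000 with 13 and 26. The ratio of Igk as a whole was 1.18. The shares called in the NK receptor cluster (3.10%) and Igk (2.35%) lay below the 3.71% of autosomal bins. The directions of these few bins are therefore no result about either cluster.

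The MHC had the most 100 kb bins tested and the most called, but not the highest share called. That share was higher in the NK receptor cluster, with 3 bins of 15, than in the MHC, with 6 of 35. Of its 35 bins with 100 or more positions, 5 were lower and 1 higher in the mutant library by the unwidened interval, against 4.77% and 5.57% of 22770 autosomal bins, or 10.3% in all. The bin farthest from 1 was chr17:35800001-35900000, with 130 and 192 positions and a ratio of 0.653 (0.518 to 0.820). It adjoined chr17:35700001-35800000, with 128 and 169 positions and a ratio of 0.730 (0.576 to 0.924). The bin on chr17:34700001-34800000 had a ratio of 0.736 (0.595 to 0.907). The one higher bin, chr17:36600001-36700000, had a ratio of 1.32 (1.02 to 1.71). Along the MHC the segment chr17:34720001-35650000 had a ratio of 0.855 (0.791 to 0.926) and the segment chr17:36580001-37500000 one of 1.03 (0.943 to 1.13).

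In the other clusters fewer bins were tested and fewer called. Bins under 100 positions were not called, also where their interval lay above 1, as it did for some in Igh and Igk. Of 28 bins of 100 kb in Igh 19 reached 100 positions and 1 was called, chr12:116000001-116100000 with 68 and 35 positions and a ratio of 1.87 (1.23 to 2.90). Of 32 in Igk 7 reached 100 positions and 1 was called, chr6:67700001-67800000 with 71 and 39 positions and a ratio of 1.76 (1.17 to 2.66). Of 19 in the NK receptor cluster 15 reached 100 positions and 3 were called. These were chr6:128700001-128800000 at 0.704 (0.513 to 0.961), chr6:129100001-129200000 at 1.62 (1.10 to 2.41) and chr6:129800001-129900000 at 1.48 (1.09 to 2.02). By segment, Igh had ratios of 0.984 and 1.02 in the 2 segments at lower coordinates and 1.24 (1.04 to 1.48) and 1.22 (1.06 to 1.40) in the 2 at higher coordinates. The difference between segments was not tested.

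**Figure D5:**
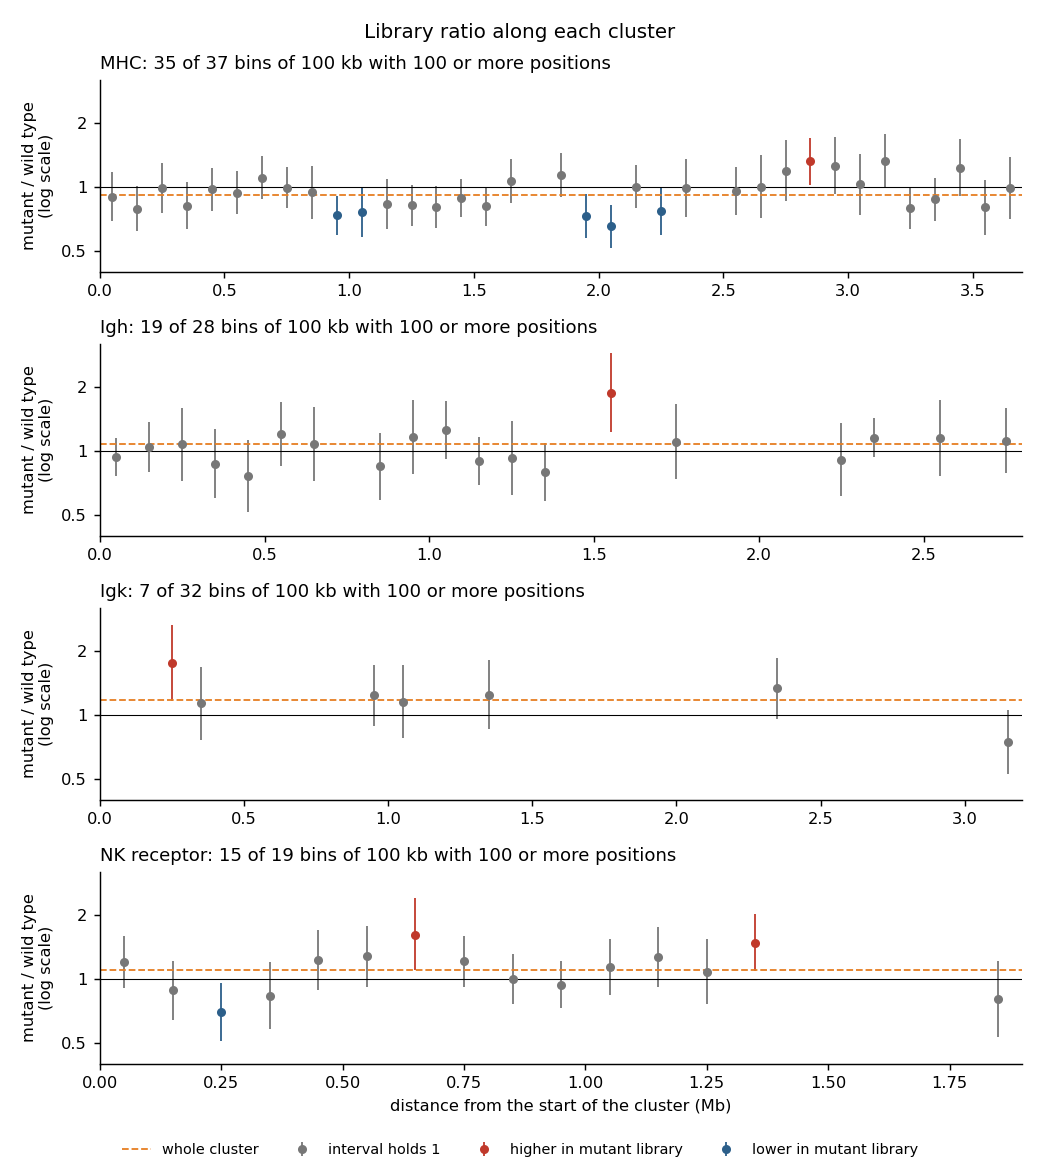
Depth-scaled ratio of mutant to wild-type positions (vertical axis, log scale) with exact 95% intervals in 100 kb bins along each cluster (horizontal axis, Mb from its start), for bins with 100 or more positions; the dashed line is the ratio of the whole cluster. Called bins are coloured, and 5 of the 6 in MHC lie below 1.

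Repeats, strands and shared positions were set against the flanks. Repeated reads at a position already counted were 8.54% of mutant reads in Igh, 8.84% in Igk, 9.31% in the NK receptor cluster and 7.06% in the MHC, against 7.92 to 8.28% in the flanks. In the wild-type library they made up 11.04 to 12.2% in the clusters and 11.5 to 12.7% in the flanks. The share of positions on the plus strand had an interval that included 50% in 7 of 8 cases, and in Igk it was 53.4% (50.2 to 56.5%) in the wild-type library. In Igh 11 positions were found in both libraries, 0.587% of the mutant positions (0.293 to 1.05%), against 18 or 0.180% (0.107 to 0.285%) in its flanks. Of these 11, 5 lay in the 100 kb that hold the excess bin. In the MHC 6 positions were shared, or 0.135% of mutant positions (0.0495 to 0.293%), within the 0.108 to 0.180% of the flanks of the other clusters. The flanks of the MHC stood higher, with 89 or 1.32% (1.06 to 1.62%). They include the block chr17:39900001-40000000, and their share without it was not measured. In Igk and the NK receptor cluster 4 and 3 positions were shared, and their intervals overlapped those of the flanks.

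Counts were more uneven along the antibody gene clusters than along their flanks. The variance of 10 kb bins over their mean in Igh was 7.90 for mutant and 7.36 for wild-type positions, against 2.08 and 2.69 in its flanks. In Igk it was 4.34 and 4.59, against 2.49 and 3.0. The other clusters were less uneven than their flanks. The NK receptor cluster had 3.35 and 3.72, against 5.55 and 6.66, and the MHC 3.68 and 4.52, against 58.6 and 117.8. The flanks of the MHC include the block chr17:39900001-40000000, with 650 mutant and 949 wild-type positions. Their unevenness without it was not measured, so the comparison for the MHC may rest on that block. Bins that were fuller in one library tended to be fuller in the other. Spearman's rho between the libraries over bins was 0.773 in Igh (280 bins), 0.772 in Igk (320 bins), 0.759 in the NK receptor cluster (190 bins) and 0.718 in the MHC (370 bins). These bins share the reference genome and its repeats, so the correlation is a description only.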

How the data were processed

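Each library's file lists aligned reads of 36 bp. Bowtie made the alignments, per the submitters' processing notes, and its version, settings and filters were not given in the sources used here. Every line carries a deposited score of 255, which was not used. Reads with the same chromosome, strand and 5′ end were counted once, in 10 and 100 kb bins, starting at 3 Mb on each autosome. Flanks were 3 Mb on each side. Background windows of each cluster's length were laid end to end over chromosomes 1 to 19, without those that overlap a cluster. Ratios carry exact Clopper-Pearson 95% intervals, and odds ratios exact conditional ones. The text names, per cluster, the 4 longest empty runs (with those tied in Igk), the 4 fullest excess runs, and the 4 differing 10 kb bins and up to 4 differing 100 kb bins farthest from a ratio of 1. Clusters, rules and tests were chosen with earlier results of these data known. The call rules were tested on simulated data. No genome of the reads' build was used, so no sequence of a bin is printed, and gene names come from the GRCm38.p6 tables of RefSeq. Alternatives covered repeated reads, bin size, flanks, thresholds, scaling and edges. Scripts ran on Python 3.11.15 (scipy 1.17.1, numpy 2.4.6; pandas 2.3.3; figures by matplotlib 3.10.9).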

Additional observations from a re-analysis of the deposited data

How the results depend on the processing

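The densities of Igh and Igk against their flanks stayed below 1 under all 8 alternatives run for each library, with an interval below 1 in the 7 that give one (the ratio of median bins has none), and those of the NK receptor cluster did so under all but the flank at higher coordinates alone, which gave 1.49 and 1.57. In the MHC the mutant density turned to 0.993 against the mean autosomal bin and to 0.803 against the flank at lower coordinates. The wild-type density there turned to 0.743 against that flank. Its interval excluded 1 at 1.52 with 1 Mb flanks, 1.49 with 1.5 Mb flanks, 1.34 without the 2 blocks, 1.08 against the mean autosomal bin and 1.65 against the flank at higher coordinates. The MHC odds ratio turned to 0.875 with 1 Mb flanks, 0.883 with 1.5 Mb flanks and 0.908 without the blocks, and its library ratio to 1.05 when scaled to the flanks. Library ratios that no longer excluded 1 were, with scaling to the median 100 kb bin, 1.05 in Igh and 1.07 in the NK receptor cluster. With scaling to 10 kb bins of the same sum they were 1.04 in Igh, 1.08 in Igk and 1.04 in the NK receptor cluster, and with 100 kb bins of like sum 1.01, 1.05 and 1.01. Empty length in MHC, Igh, Igk and the NK receptor cluster was 195, 440, 980 and 205 kb with 5 kb bins, and 0, 40, 220 and 0 kb with 20 kb bins. Low length in the MHC was 385 kb with 5 kb bins and 100 kb with 20 kb bins. Low length at under 10% of the median flank bin was 130 kb in MHC, 700 kb in Igh, 1190 kb in Igk and 220 kb in the NK receptor cluster. Excess length with 5 kb bins was 20 kb in Igh, 5 kb in Igk and 25 kb in the NK receptor cluster, and with 20 kb bins 20 kb in Igh. At 3 times the median flank bin it was 160 kb in MHC. Against the median autosomal bin it was 170 kb in MHC and 70 kb in Igh. Differing bins with 20 kb bins numbered 7 in MHC, 4 in Igh and 0 in the NK receptor cluster, with 5 kb bins 3 in Igh, and with 20 or more positions required 4 in Igh and 1 in the NK receptor cluster. With every aligned read they numbered 5 in Igk and 9 in the NK receptor cluster, 1 bin of Igk was filled in 1 library alone, and differing 100 kb bins numbered 11 in MHC and 2 in Igk. Differing 100 kb bins of MHC numbered 10 with scaling to the median. Among named bins, the excess run on chr17 from 34430001 turned to a ratio of 1.001 with every read, where its interval includes 1 as before. The 10 kb bin on chr12 from 116910001 no longer excluded 1 with every read (3.0, 0.910 to 12.8) or with scaling to the median (4.67, 0.995 to 43.8), nor did the 100 kb bin on chr17 from 36600001 with scaling to the median (1.28, 0.988 to 1.66). With that scaling the excess run on chr17 from 34700001 did exclude 1 (0.649, 0.425 to 0.983). Bin sizes, thresholds and minimums change what is counted; the other causes were not tested. No paired analysis was possible because each group holds 1 library, and no library could be left out.

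Depth limits the comparison of libraries: the median 10 kb bin held 9 positions in Igh and 4.5 in Igk in the libraries together, so most bins there could not be tested, and 85 of 320 bins of Igk were.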
